A study of Mus musculus with 44 samples.

Results

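Microglia and astrocytes that both lack a working Apoe gene were compared with each other across all expressed genes. The comparison holds 8 of the 44 RNA-seq libraries of a mouse series: every library labelled Apoe knock-out (KO), 4 from microglia and 4 from astrocytes. The series covers primary glia of 4 Apoe genotypes, namely KO, mice labelled APOE33 or APOE44, and wild type (WT), with no treatment of any culture. The KO, APOE33 and APOE44 libraries are labelled batch 1 and the WT libraries batch 2. The labels of 1 library disagree: astrocyte replicate 1 of APOE33 has that genotype in its title and source, but WT in its genotype tag. It was kept as APOE33. Its Apoe level was 21.3 CPM, against 19.8 to 30.6 CPM in the other APOE33 astrocytes and 4948 to 6397 CPM in WT astrocytes.

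KO microglia and KO astrocytes are the groups of the main comparison. Each consists of 1 female library, replicate 1, and 3 male libraries, replicates 2 to 4, and the values of a group are given below in that order. Both cell types were purified primary cultures, kept in media described as made for human microglia and human astrocytes, so medium and cell type cannot be told apart. The labels name neither the allele that disables Apoe nor the age of the mice or the number of animals behind a library. Nor do they tell separate animals from repeat cultures, so the p-values measure the spread between these libraries, which may be technical.

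Microglia are the resident macrophages of the brain. They depend on signalling through the receptor CSF1R, take up debris and lipoproteins, and digest them in lysosomes. Astrocytes arise from the neural lineage, clear glutamate and potassium from around synapses, build extracellular matrix, and are the main producers of apolipoprotein E in the healthy brain. Apolipoprotein E carries cholesterol and other lipids between cells through lipoprotein receptors.

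In the absence of Apoe, the lineages stayed far apart. The genes of macrophage identity, lysosomes, pathogen sensing and engulfment were higher in KO microglia, and those of astroglial identity, neurotransmitter handling and extracellular matrix were lower. Of 18955 genes tested, 7201 were higher in KO microglia (38.0%) and 9149 were lower (48.3%), at an adjusted p under 0.05. Cholesterol synthesis was a group in which the KO cultures departed from those of the other genotypes. Of its 20 enzymes, 18 were higher in KO microglia and none was lower, whereas in APOE33, APOE44 and WT cultures the same enzymes lay on both sides.

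The 4 KO microglia libraries held 98006360 to 106646895 counts, and the 4 KO astrocyte libraries 107293569 to 115918340. At least 10 counts were found for 15710 to 16234 genes in KO microglia libraries, against 19209 to 19729 genes in KO astrocyte libraries. The 10 most abundant genes took 15.7 to 18.8% of the counts in KO microglia and 6.90 to 7.81% in KO astrocytes, and mitochondrial genes took 1.15 to 1.33% and 3.12 to 3.39%. RNA integrity numbers were 9.6 to 9.9 in KO microglia and 9.1 to 9.7 in KO astrocytes. All levels below are CPM, counts scaled to a common library total, after scaling with trimmed means (TMM), and all differences are log2 values, KO microglia minus KO astrocytes, from edgeR's quasi-likelihood test with Benjamini-Hochberg adjustment over all genes tested.

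The labels were checked first on Apoe itself, which lies on chromosome 7, 19696109 to 19699188 (GRCm38, minus strand). Apoe had 17.8, 9.33, 7.50 and 28 CPM in KO microglia and 9.29, 11.3, 13.2 and 11.7 CPM in KO astrocytes. These values overlapped, and the log2 difference of 0.42 (SE 0.41) was not called (adjusted p = 0.351). In WT cultures Apoe averaged 51373 CPM in microglia and 5813 CPM in astrocytes. It was also low in APOE33 astrocytes, at 19.8 to 30.6 CPM, and in APOE44 astrocytes, at 19.6 to 29.4 CPM. The KO astrocyte values lay below these, but all were far below WT. The check thus sets KO libraries apart from WT ones, and values of APOE33 and APOE44 microglia are not given here.

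The cell types were checked on their defining genes. Aif1, a calcium-binding protein of macrophages, had 243, 288, 278 and 258 CPM in KO microglia, against 1.57, 1.72, 0.845 and 0.939 CPM in KO astrocytes (log2 7.68, SE 0.26, adjusted p = 4.59e-08). Csf1r, the receptor on which microglia depend for survival, had 2620.4, 3229.8, 3043 and 2923 CPM in KO microglia, against 33.5, 39.6, 16.7 and 24.9 CPM in KO astrocytes (log2 6.65, SE 0.32). For both genes every microglia library stood far above every astrocyte library.

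The astroglial genes lay the other way. Gfap, the intermediate filament of astrocytes, had 28.2, 11.1, 10.4 and 23.2 CPM in KO microglia, against 3646, 5208, 5100.1 and 3147 CPM in KO astrocytes (log2 -7.98, SE 0.47, adjusted p = 1.13e-06). Aqp4, the water channel of astrocyte endfeet, had 4.33, 1.20, 1.45 and 4.86 CPM in KO microglia, against 591, 742, 696 and 548 CPM in KO astrocytes (log2 -7.84, SE 0.53). In KO microglia, replicates 1 and 4 were the higher ones for both genes.

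**Figure D1:**
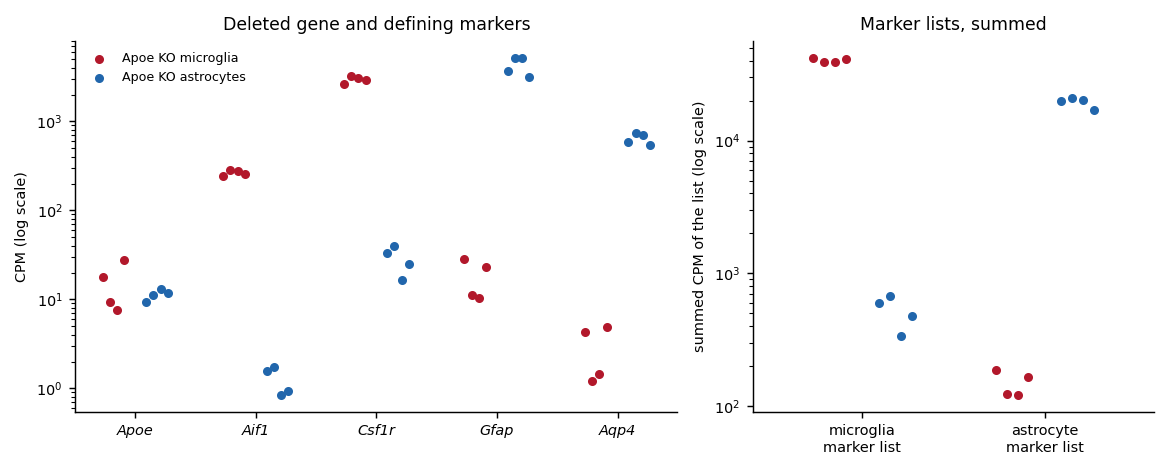
Left, CPM (log axis) of Apoe and of the markers Aif1, Csf1r, Gfap and Aqp4 in each KO microglia library (red) and each KO astrocyte library (blue); right, the summed CPM (log axis) of the whole marker lists. Each point is 1 library, in replicate order. The cell types overlap for Apoe and stand apart for each marker, and the microglia marker sums are 38887 to 42225 CPM in KO microglia and 338 to 673 CPM in KO astrocytes.

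Over the whole lists, all 22 microglia markers were higher in KO microglia, with a median log2 difference of 6.59, and all 19 astrocyte markers that were tested were lower, with a median of -7.84. The median over all genes tested was -0.25. The 22 microglia markers summed to 42225, 38887, 39410 and 40986 CPM in KO microglia and to 600, 673, 338 and 479 CPM in KO astrocytes. The 20 astrocyte markers summed to 188, 122, 121 and 164 CPM in KO microglia and to 20052, 20950, 20183 and 16958 CPM in KO astrocytes, and 1 of them, Slc7a10, was at 0 in all KO microglia libraries.

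Each culture thus held a small signal of the other's markers, and this signal was not even across libraries. In KO astrocytes, replicate 3 was lowest for the summed microglia markers, and it was also lowest for myeloid genes outside the list such as Vav1, at 6.05, 6.93, 2.95 and 5.36 CPM. In KO microglia, replicates 1 and 4 were highest for the summed astrocyte markers, and likewise for Osmr, at 1.04, 0.144, 0.265 and 0.964 CPM. The part that transcripts of the other cell type had in the differences below was not tested. In bulk RNA, fewer cells of a type and less RNA per cell cannot be told apart.

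The differences were large. Past a 2-fold change, tested with edgeR's TREAT method, 10011 genes were called (52.8%), of which 3784 were higher in KO microglia (20.0% of all tested) and 6227 were lower (32.9%). Log2 differences above 8 were reached by 100 called genes in KO microglia, whereas 926 called genes lay below -8. Among 14572 protein-coding genes tested, 20.7% were higher past 2-fold and 32% were lower. Among 740 long intergenic noncoding RNA genes the shares were 18.2% and 50.1%, and among 852 genes annotated as antisense 12.8% and 47.7%. Whether the counting used strand is not given in the sources used here, so antisense genes may hold reads of their partners. The processed pseudogenes leaned the other way, with 28.1% of 1080 higher and 11.7% lower, and these may share reads with their parent genes.

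**Figure D2:**
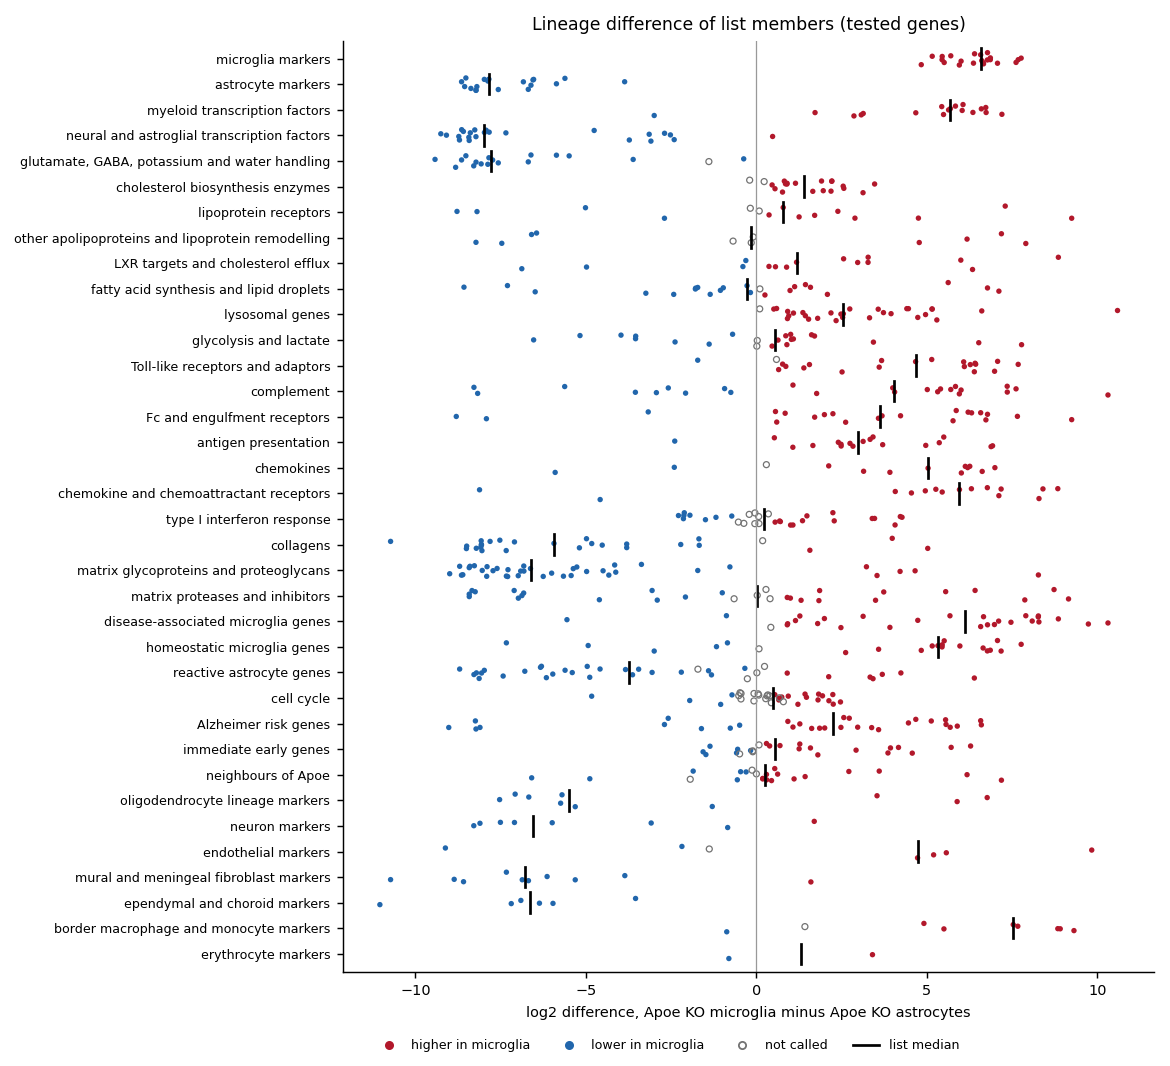
Log2 difference, KO microglia minus KO astrocytes, of each tested member of 36 gene lists, 1 point per gene, with the list's median as a black bar; red points are called higher, blue points called lower and open points not called. The immune and lysosomal medians lie right of 0, and those of the astroglial, neural, collagen and matrix glycoprotein lists left of it. The median of the matrix proteases and inhibitors lies at 0.02, and the cholesterol enzymes lie between -0.20 and 3.47. The most extreme points include genes with no count in 1 cell type, whose fitted value depends on the prior count.

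Among genes called past 2-fold with a mean log2 CPM of at least 5 over the 8 libraries, 10 genes were named in each direction by the size of the difference. Upward, Atp6v0d2, a subunit of the proton pump that acidifies lysosomes in macrophages and osteoclasts, had 505, 411, 479 and 466 CPM in KO microglia, against 0.433, 0.211, 0.282 and 0.248 CPM in KO astrocytes (log2 10.59, SE 0.15). Itgax, the CD11c integrin, had 247, 107, 131 and 191 CPM in KO microglia, against 0.119, 0.179, 0.104 and 0.109 CPM in KO astrocytes (log2 10.31, SE 0.31). Cst7, an inhibitor of cathepsins, had 268, 187, 181 and 301 CPM in KO microglia, against 0.194, 0.422, 0.311 and 0.140 CPM in KO astrocytes (log2 9.73, SE 0.35). No KO astrocyte library reached 1 CPM for these 3 genes, and within KO microglia Itgax and Cst7 were highest in replicates 1 and 4.

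The next 7 were Clec4n, a lectin that binds fungal sugars (9.31), the scavenger receptor Cd36 (9.24), the macrophage elastase Mmp12 (9.15), the creatine-synthesis enzyme Gatm (8.93), the chemokine Pf4 (8.91), the plasminogen activator Plau (8.73) and the fatty acid receptor Gpr84 (8.60). Gatm had 766, 853, 856 and 811 CPM in KO microglia, against 1.80, 1.97, 1.42 and 1.37 CPM in KO astrocytes. Per kilobase of exon, the highest levels in KO microglia were those of the lysozyme Lyz2 (56769 CPM per kb in KO microglia, 179.6 in KO astrocytes), the protease Ctsd (12301 and 445) and the secreted phosphoprotein Spp1 (7996 and 25).

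The transcription factors that set myeloid identity were nearly all on the microglial side. Of 18 listed, 17 were higher in KO microglia and 1 was lower, with a median log2 difference of 5.66. Spi1, which encodes PU.1, had 398, 419, 401 and 401 CPM in KO microglia, against 4.10, 5.47, 2.31 and 4.40 CPM in KO astrocytes (log2 6.60). Its partner Irf8 had 551, 594, 592 and 561 CPM in KO microglia, against 5.13, 6.36, 3.61 and 5.86 CPM in KO astrocytes (log2 6.73). Both were separated completely between the cell types, as were Cebpa (5.84), Mef2c (4.67) and Mef2a (3.13).

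Sall1 was the exception. This zinc-finger factor maintains the resting identity of microglia in the brain and is also expressed in neural progenitors. It had 13.9, 5.33, 6.13 and 14.4 CPM in KO microglia, against 76.2, 78.3, 72.4 and 74.6 CPM in KO astrocytes (log2 -3.00, SE 0.32, adjusted p = 5.06e-05). All 4 microglia values lay below all 4 astrocyte values, and replicates 1 and 4 were again the higher ones in KO microglia. In the other genotypes its log2 difference was -0.91 in APOE33, -1.13 in APOE44 and -2.83 in WT cultures.

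The genes known as homeostatic in microglia gave a mixed picture. Of 21 tested, 15 were higher in KO microglia and 5 were lower. Tmem119, a membrane protein of resting microglia, had 126, 201, 146 and 161 CPM in KO microglia, against 2.67, 5.73, 2.39 and 2.79 CPM in KO astrocytes (log2 5.51), and P2ry12, the ADP receptor of surveying microglia, had 59.1, 87.7, 88.2 and 80.3 CPM in KO microglia, against 2.22, 2.07, 1.27 and 1.41 CPM in KO astrocytes (log2 5.45). The 5 lower were Sall1, the lens crystallin Crybb1 (-4.93), the matrix protein Sparc (-7.33), the cystatin Cst3 (-0.85) and the GTPase Rhob (-1.17), of which Sparc and Cst3 are also made by astrocytes. Siglech, another marker, had a mean of 0.954 CPM in KO microglia, against 0.00575 CPM in KO astrocytes.

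Genes known from disease-associated microglia, the state that gathers around amyloid plaques, were mostly higher. Of 28 listed, 25 were higher in KO microglia and 2 were lower (Csf1 and Ank), and Apoe itself was not called. Trem2, the lipid-sensing receptor of that state, had 1648, 1352, 1412 and 1484 CPM in KO microglia, against 18.6, 19.3, 7.82 and 14.6 CPM in KO astrocytes (log2 6.58). Gpnmb, a glycoprotein of lipid-laden macrophages, had 19693, 8973, 12421 and 13299 CPM in KO microglia, against 113, 72.6, 44.6 and 70.9 CPM in KO astrocytes (log2 7.46).

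Lysosomal genes followed the same side. Of 30 listed, 29 were higher in KO microglia, 24 of them past 2-fold, and none was lower, with a median log2 difference of 2.54. Their summed level was 80343 to 113587 CPM in KO microglia and 12975 to 13872 CPM in KO astrocytes, with no overlap. The cathepsin Ctsd had 36678, 22544, 26043 and 30416 CPM in KO microglia, against 1096, 1080.0, 997 and 1008 CPM in KO astrocytes (log2 4.73), and Ctsh had a log2 difference of 5.29. Npc1, which exports cholesterol from lysosomes, had 633, 536, 583 and 595 CPM in KO microglia, against 103, 97.7, 92.9 and 95.1 CPM in KO astrocytes (log2 2.55, SE 0.05). The acid glucosidase Gaa was the member not called.

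Pathogen sensing lay with microglia, with an exception. Of 21 Toll-like receptors and adaptors, 19 were higher in KO microglia and 1 was lower. Cd14, the co-receptor for bacterial lipopolysaccharide, had 194, 230.1, 220.2 and 235 CPM in KO microglia, against 3.04, 2.75, 2.02 and 2.38 CPM in KO astrocytes (log2 6.39). Unc93b1, which escorts the endosomal receptors, and Cd180 had log2 differences of 6.27 and 7.68. Tlr3, the sensor of double-stranded RNA, was lower, with 24.5, 24.3, 23.1 and 25.9 CPM in KO microglia, against 77.6, 79.3, 86.3 and 69.8 CPM in KO astrocytes (log2 -1.72, SE 0.07). The astrocyte values of Tlr3 exceeded all microglia values.

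Genes of the complement system lay on both sides. Of 24 genes, 15 were higher in KO microglia and 9 were lower, where 38.0% and 48.3% of all genes were. The C1q chains were microglial, with C1qa at 4887, 4218, 3941 and 4694 CPM in KO microglia, against 99.5, 109, 48.3 and 76 CPM in KO astrocytes (log2 5.70), and so were properdin Cfp (4.05) and the receptor C3ar1 (5.84). The proteases that act with C1q lay with astrocytes, C1s1 at log2 -5.62 and C1ra at -2.58, as did their inhibitor Serping1 (-8.28) and C4b (-8.17). C4b had 0.536, 0.407, 0.410 and 0.459 CPM in KO microglia, against 80.7, 166, 148 and 119 CPM in KO astrocytes. Genes with near-identical copies, such as C4b, the class I genes and the Ifit and Oas families, may share reads, so their values are uncertain.

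Engulfment and antigen presentation were mostly microglial. Of 22 Fc and engulfment receptors and their bridging molecules, 19 were higher in KO microglia and 3 were lower. The lower ones were Megf10, an engulfment receptor of astrocytes (-7.92), the engulfment adaptor Gulp1 (-8.80) and the receptor kinase Tyro3 (-3.17). Among 18 antigen presentation genes, 17 were higher and 1 was lower. The class II genes were at low levels in KO microglia: H2-Ab1 had 1.63, 1.11, 1.12 and 1.74 CPM in KO microglia, against 0.179, 0.0812, 0.104 and 0.0621 CPM in KO astrocytes, and its master regulator Ciita had 0.0937, 0.0718, 0.0482 and 0.223 CPM in KO microglia, against 0.492, 0.382, 0.838 and 0.543 CPM in KO astrocytes (log2 -2.39). Ciita lay opposite to H2-Ab1, H2-Eb1 and Cd74, which it is known to control. Of class I, B2m was at 2924, 2704, 2978 and 2688 CPM in KO microglia, against 266, 329, 365 and 299 CPM in KO astrocytes (log2 3.13).

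Of 13 chemokines tested, 10 were higher in KO microglia and 2, Cx3cl1 and Cxcl12, were lower. Of 15 chemokine and chemoattractant receptors, 13 were higher and 2 were lower, the scavenging receptors Ackr1 and Ackr3. Fpr1, the receptor for bacterial formyl peptides, had 53.6, 78.9, 80.8 and 68.5 CPM in KO microglia, against 0.209, 0.195, 0.163 and 0.233 CPM in KO astrocytes (log2 8.40). The interferon response genes lay on both sides, with 14 of 30 higher, 8 lower and a median log2 difference of 0.21. Over all genes, 38.0% were higher and 48.3% lower. Bst2 (tetherin), Oas1a and Parp14 were higher (4.07, 4.27 and 2.28), whereas Cmpk2 (-2.29) and the Ifit genes Ifit1 to Ifit3 were lower, Ifit1 at -1.95, Ifit2 at -1.49 and Ifit3 at -2.13.

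Toward astrocytes, the largest difference among genes of the same minimum level was that of Aldh1a1, the enzyme that makes retinoic acid, with 1.61, 1.15, 0.904 and 1.76 CPM in KO microglia, against 1449.8, 868, 1295 and 1441 CPM in KO astrocytes (log2 -9.91, SE 0.30). Ogn, a small proteoglycan, had 1.94, 2.00, 1.81 and 1.65 CPM in KO microglia, against 923, 1849.8, 1763 and 1255 CPM in KO astrocytes (log2 -9.62). The next 8 were the signalling regulator Rgs6 (-9.52), Ccdc85a (-9.51), the transcription factor Tfcp2l1 (-9.47), Islr (-9.43), Adam11 (-9.41), Baalc (-9.34), the potassium channel Kcnk1 (-9.32) and Luzp2 (-9.31). Rgs6 had 0.134, 0.120, 0.157 and 0.141 CPM in KO microglia, against 86, 98.8, 103 and 108 CPM in KO astrocytes. Among nuclear protein-coding genes, the highest levels per kilobase in KO astrocytes included the ferritin chain Fth1 (7616 CPM per kb in KO microglia, 3055 in KO astrocytes), Cst3 (1369 and 2437) and the prohormone-processing enzyme Cpe (6.52 and 2161). Fth1 was nonetheless higher in KO microglia, by log2 1.27.

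Of 23 transcription factors of the neural and astroglial lineage, 22 were lower in KO microglia and 1 was higher, with a median log2 difference of -7.97. Sox9, which specifies astrocytes, had 2.28, 0.885, 0.627 and 1.53 CPM in KO microglia, against 450.1, 430.4, 403 and 427 CPM in KO astrocytes (log2 -8.43). Forebrain factors were part of the group, with Pax6 at log2 -8.59 and Id4 at -9.09. The exception was the Notch target Hes1, with 2.36, 4.45, 4.53 and 3.39 CPM in KO microglia, against 2.01, 2.68, 2.65 and 2.77 CPM in KO astrocytes (log2 0.47, adjusted p = 0.0134). Its groups overlapped, and its call was lost without the sex term (adjusted p = 0.0586).

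The transporters and channels by which astrocytes tend synapses were lower in KO microglia for 17 of 18 genes tested, and none was higher. The median log2 difference was -7.79, or -7.65 with genes absent from all microglia libraries set at their counting bound. The glutamate transporter Slc1a2 had 1.57, 0.514, 0.555 and 1.26 CPM in KO microglia, against 383, 270.1, 248 and 208 CPM in KO astrocytes (log2 -8.22). Its relative Slc1a3 had 4.30, 2.92, 2.89 and 5.01 CPM in KO microglia, against 838, 945, 845 and 810.2 CPM in KO astrocytes (log2 -7.88). Glutamine synthetase, Glul, came close to equality, with 704, 673, 769 and 792 CPM in KO microglia, against 952, 913, 929.9 and 896 CPM in KO astrocytes (log2 -0.37, adjusted p = 6.63e-04), though its groups did not overlap. The adhesion protein Hepacam had a log2 difference of -8.29.

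Extracellular matrix was astrocytic, apart from a few genes. Of 27 collagen genes tested, 23 were lower in KO microglia and 3 were higher, with a median log2 difference of -5.94. The basement membrane chain Col4a2 had 0.228, 0.179, 0.458 and 0.506 CPM in KO microglia, against 69.2, 103, 98.6 and 88.2 CPM in KO astrocytes (log2 -8.07), and Col5a1 and Col4a3 had log2 differences of -8.49 and -8.08. The 3 higher were Col14a1 (3.98), Col15a1 (5.02) and Col27a1 (1.57). Of 39 matrix glycoproteins and proteoglycans, 34 were lower and 5 were higher, with a median of -6.62. The 5 were Spp1 (8.27), Postn (4.65), the syndecan Sdc3 (4.21), Cspg4 (3.54) and fibronectin, Fn1, which had 628, 1107, 1261 and 961 CPM in KO microglia, against 103, 107, 106 and 83.4 CPM in KO astrocytes (log2 3.23). The summed level of this list overlapped, at 12082 to 17566 CPM in KO microglia and 9164 to 16412 CPM in KO astrocytes, with Spp1 alone averaging 13177 CPM in KO microglia.

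Of 29 matrix proteases and their inhibitors, 12 were higher and 13 lower, where 38.0% and 48.3% of all genes were. Mmp12, Plau, Adam8 and Adam17 were among the higher ones, Adam17 at log2 3.73. The ADAMTS protease Adamts9 (-8.34), the membrane protease Mmp15 (-8.25), Htra1 (-6.82) and the inhibitors Timp3 (-8.42) and Timp4 (-6.88) were among the lower ones.

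Of 36 genes known to rise in reactive astrocytes, 25 were lower in KO microglia and 7 were higher. Vimentin, Vim, had 295, 178, 219 and 272 CPM in KO microglia, against 5044, 5754, 5907 and 5600.0 CPM in KO astrocytes (log2 -4.58), and lipocalin 2, Lcn2, had 3.80, 1.15, 0.989 and 3.79 CPM in KO microglia, against 518, 761, 959 and 497 CPM in KO astrocytes (log2 -8.21). The 7 higher were Cd14, Srgn, Cd44, Cxcl10, Psmb8, H2-D1 and H2-T23, genes also known from immune cells.

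Ligand and receptor pairs known from glia, 22 in number, were examined. In 9 pairs the ligand was lower and the receptor higher in KO microglia. Over all single genes, 48.3% were lower and 38.0% higher, and the share of all gene pairs that lie so was not computed. The 9 pairs are not independent, since Csf1r is the receptor of both Csf1 and Il34. Csf1, a ligand of CSF1R, had 12.6, 8.46, 8.24 and 11.2 CPM in KO microglia, against 286, 535, 580.3 and 484 CPM in KO astrocytes (log2 -5.55). Il34, the other ligand, had 0.214, 0.0478, 0 and 0.176 CPM in KO microglia, against 18.4, 13, 13.2 and 16.4 CPM in KO astrocytes (log2 -7.19). Cx3cl1, the fractalkine ligand, had a log2 difference of -2.41, and its receptor Cx3cr1 one of 6.77. The other pairs of this kind were Cd200 (-6.52) with Cd200r1 (7.30), Tgfb2 (-7.11) with Tgfbr2 (3.31), Cxcl12 (-5.90) with Cxcr4 (5.26), C3 (-0.93) with C3ar1, Il33 (-4.26) with Il1rl1 (4.16), and App (-0.49) with Cd74 (5.36). Some members were barely detected in either cell type. In KO microglia and KO astrocytes, Cxcl12 averaged 0.00863 and 0.458 CPM per kb, Il33 0.0106 and 0.205, and Il1rl1 0.0738 and 0.00388.

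In 5 pairs the ligand was higher and the receptor lower. Interleukin 1 beta, Il1b, had 6.09, 12.4, 10.9 and 10.4 CPM in KO microglia, against 0.0448, 0.106, 0.0445 and 0.0776 CPM in KO astrocytes (log2 7.13). Its receptor Il1r1 had 0.321, 0.0718, 0.169 and 0.141 CPM in KO microglia, against 45.3, 57.2, 55.3 and 44.8 CPM in KO astrocytes (log2 -8.23). Oncostatin M, Osm, had a log2 difference of 7.58 and its receptor Osmr one of -8.06. Pdgfb (3.95) and Pdgfrb (-8.59), Igf1 (6.98) and Igf1r (-2.23), and Il1a (4.65) and the accessory protein Il1rap (-2.46) lay the same way. In 6 pairs both members were higher in KO microglia, among them Gas6 and Axl, Tgfb1 and Tgfbr1, and Tnf with Tnfrsf1a. Tnf, the inflammatory cytokine, had 54.6, 44.4, 51.2 and 55.9 CPM in KO microglia, against 0.231, 0.130, 0.156 and 0.287 CPM in KO astrocytes, whereas Tnfrsf1a differed by only log2 0.22. Lif and Lifr were both lower, and Il6 was below the filter on low counts.

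**Figure D3:**
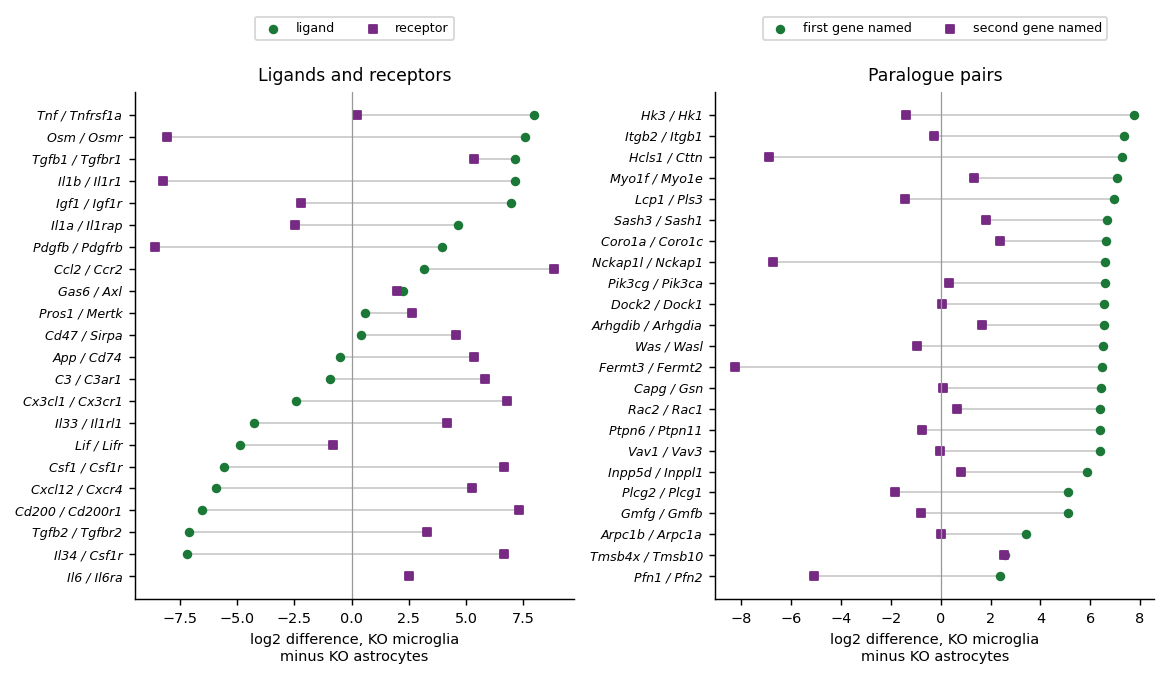
Log2 difference, KO microglia minus KO astrocytes, of both members of 22 ligand and receptor pairs (left) and 23 paralogue pairs (right), with a grey line joining the members of a pair. For 9 ligand and receptor pairs the ligand lies left of 0 and the receptor right, and for 11 paralogue pairs the members lie on opposite sides.

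Gene families with a member known from blood cells were examined as pairs of relatives. Of 23 such paralogue pairs, the blood-cell member was higher in KO microglia in all, for which the pairs were listed. Its relative was lower in 11, higher in 8 and not called in 4, where 48.3% of all genes were lower and 38.0% higher. The relatives as a group thus lay near the shares over all genes, and the pairs below are single cases. Hcls1 and its relative cortactin, Cttn, both regulators of branched actin, exchanged almost completely. Hcls1 had 579, 648, 620.1 and 617 CPM in KO microglia, against 4.39, 4.83, 2.42 and 3.94 CPM in KO astrocytes (log2 7.27), and Cttn had 4.47, 1.20, 1.33 and 4.07 CPM in KO microglia, against 264, 324, 340.5 and 307 CPM in KO astrocytes (log2 -6.90).

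The integrin activators Fermt3 (6.49) and Fermt2 (-8.24) and the actin-nucleation scaffolds Nckap1l (6.61) and Nckap1 (-6.72) exchanged in the same way. Smaller opposite differences separated the plastins Lcp1 (6.95) and Pls3 (-1.43), the profilins Pfn1 (2.37) and Pfn2 (-5.10), the hexokinases Hk3 (7.77) and Hk1 (-1.39), and the phospholipases Plcg2 (5.13) and Plcg1 (-1.85). In other families the relative was shared. Vav1, an activator of small GTPases in blood cells, had 449, 459, 458 and 455 CPM in KO microglia, against 6.05, 6.93, 2.95 and 5.36 CPM in KO astrocytes (log2 6.38), and Vav3 had 21.3, 17.7, 20.2 and 22 CPM in KO microglia, against 29.8, 16.6, 18.2 and 18.7 CPM in KO astrocytes (log2 -0.04, adjusted p = 0.795). Dock1 (0.06), Gsn (0.08) and Arpc1a (0.03) were likewise not called, while Dock2 (6.56), Capg (6.43) and Arpc1b (3.44) were higher. For Vav3 the groups overlapped, with astrocyte replicate 1 the highest of the 8 libraries.

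The phosphatases Inpp5d, known as SHIP1, and Inppl1 were both higher, at log2 5.89 and 0.81. The promoters of Vav1 and Inpp5d are shown because each holds, close to the start, the letters GAGGAAGT that the myeloid factor PU.1 (Spi1) is known to bind. They are 250 bases before the gene's start from RefSeq (GRCm38.p6, plus strand), Vav1 at chr17:57278850-57279099 and Inpp5d at chr1:87620062-87620311, with the match in capitals. It begins 11 bases before the start in Vav1 and 20 bases before it in Inpp5d.
Vav1: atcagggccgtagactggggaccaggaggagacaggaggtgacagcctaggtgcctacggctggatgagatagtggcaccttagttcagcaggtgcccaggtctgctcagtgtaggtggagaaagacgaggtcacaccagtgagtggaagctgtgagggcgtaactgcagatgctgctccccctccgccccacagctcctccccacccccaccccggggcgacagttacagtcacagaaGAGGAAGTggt
Inpp5d: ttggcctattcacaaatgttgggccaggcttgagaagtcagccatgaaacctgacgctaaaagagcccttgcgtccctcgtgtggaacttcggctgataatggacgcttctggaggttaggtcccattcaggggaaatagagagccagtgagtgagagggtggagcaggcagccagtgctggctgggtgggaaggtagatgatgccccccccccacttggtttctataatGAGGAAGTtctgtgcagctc

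A promoter was matched by symbol for 12422 of 18936 tested symbols. The letters GAGGAAGT, on either strand, occurred in the 250 bases before the start of 5.15% of the genes higher past 2-fold in KO microglia, 2.03% of those lower past 2-fold, 2.91% of all tested genes and 2.44% of all 32851 promoters in the table. The shorter core GGAANT, with which GAGGAAGT overlaps, occurred in 55.8%, 45.7% and 51.3% of the first 3 groups. The letters GGAATG, bound by TEAD factors, stood in 13% of those higher and 16.1% of those lower. Further motifs were searched. The E-box motif stood in 10.8% of those higher and 7.25% of those lower. This gap of 3.55 points exceeded the 3.12 points of GAGGAAGT. The IRF repeat stood in 4.87% and 2.7%, and the AP-1 motif in 7.9% and 6.3%. The remaining motifs had gaps of -1.5 to 0.65 points. GAGGAAGT stood in 1 of 16 matched microglia marker promoters and 0 of 17 astrocyte marker promoters. These matches describe letters in a window and not binding.

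Lipid genes lay on both sides. Over all genes tested, 38.0% were higher in KO microglia and 48.3% were lower. Among 15 lipoprotein receptors, 9 were higher in KO microglia and 4 were lower. Lrp1, a large receptor that takes up apolipoprotein E, had 4662, 3478, 2895 and 4152 CPM in KO microglia, against 1079, 1123, 1176 and 1101 CPM in KO astrocytes (log2 1.71). Cd36 and Msr1 were higher by 9.24 and 7.30, while the relatives of Lrp1, Lrp2 (-8.78), Lrp1b (-8.19), Lrp4 (-5.01) and Sorl1 (-2.70) were lower. Of 11 other apolipoproteins and lipoprotein enzymes tested, 4 were higher and 4 were lower. Lipoprotein lipase, Lpl, had 2324, 1431, 1725 and 2041 CPM in KO microglia, against 7.58, 8.42, 7.29 and 7.03 CPM in KO astrocytes (log2 7.90), and Apoc1 and Apoc4, neighbours of Apoe, had log2 differences of 7.18 and 6.18. The apolipoprotein Clu had 15.5, 6.39, 6.42 and 13.5 CPM in KO microglia, against 2863, 3173, 2976 and 2729.5 CPM in KO astrocytes (log2 -8.22), and Lcat, which esterifies cholesterol on lipoproteins, had -7.47.

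Of 15 genes of the oxysterol receptors and cholesterol efflux, 11 were higher in KO microglia and 4 were lower. The exporter Abca1 was found in both lineages, with 1591, 1851, 1577 and 1911 CPM in KO microglia, against 915, 1446, 1223 and 1013 CPM in KO astrocytes (log2 0.56). Its partner Abcg1 was microglial, with 185, 198, 168 and 192 CPM in KO microglia, against 2.04, 3.61, 1.65 and 1.66 CPM in KO astrocytes (log2 6.34), whereas Abcg4 was astrocytic (-6.88). Cholesterol 25-hydroxylase, Ch25h, was microglial (8.85) and the brain hydroxylase Cyp46a1 was astrocytic (-4.98). Soat1, which esterifies cholesterol for storage, had 525, 443, 477 and 468 CPM in KO microglia, against 78.1, 85.1, 76 and 75.8 CPM in KO astrocytes (log2 2.56).

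The 20 enzymes from acetyl-CoA to cholesterol leaned one way. Of these, 18 were higher in KO microglia, 10 of them past 2-fold, and none was lower, with a median log2 difference of 1.40. The sum over the 20 was 1997, 1564, 1931 and 1641 CPM in KO microglia, against 594, 729, 731 and 637 CPM in KO astrocytes. For 18 enzymes every KO microglia library exceeded every KO astrocyte library. Such separation was common: of 18955 genes tested, 7014 were called higher and 8697 called lower with no overlap between the groups.

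In the early steps, Hmgcs1, which makes HMG-CoA, had 176, 141, 166 and 154 CPM in KO microglia, against 67.4, 96.5, 90.8 and 79.1 CPM in KO astrocytes (log2 0.89, SE 0.12, adjusted p = 1.66e-04). Mvd, the mevalonate decarboxylase, had 84.7, 72.1, 86 and 68.3 CPM in KO microglia, against 5.83, 7.55, 7.38 and 6.61 CPM in KO astrocytes (log2 3.47, SE 0.11), and this was the largest difference of the 20. The groups of both genes did not overlap.

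At the squalene branch point, Fdft1, squalene synthase, had 97.8, 78.5, 101 and 77.3 CPM in KO microglia, against 57.5, 63.4, 66.9 and 62.5 CPM in KO astrocytes (log2 0.46, SE 0.10), and its call was lost in the fit on all 32 libraries of batch 1 (log2 0.45, adjusted p = 0.0610). Sqle, squalene epoxidase, had 141, 106, 138 and 114 CPM in KO microglia, against 57.2, 74, 72.6 and 64.7 CPM in KO astrocytes (log2 0.85). After lanosterol, Cyp51 had 242, 193, 246 and 203 CPM in KO microglia, against 33.8, 39, 39.8 and 34.3 CPM in KO astrocytes (log2 2.54). All these groups were separate, those of Fdft1 by the least.

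Hsd17b7, of the later steps, was not called and had a log2 difference of -0.20 (SE 0.20, adjusted p = 0.365). Dhcr7, which acts at the end of the pathway, had 98.3, 75.7, 88 and 81.6 CPM in KO microglia, against 13.2, 14.9, 15 and 13.1 CPM in KO astrocytes (log2 2.56), and Ebp had a log2 difference of 2.21. Fdps, at 8.25 to 9.10 CPM in KO microglia and 0.897 to 1.15 CPM in KO astrocytes, has processed pseudogenes that may share its reads, so its level is uncertain.

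The same enzymes in the other genotypes did not lean one way. Their median log2 difference between microglia and astrocytes was -0.21 in APOE33, -0.00 in APOE44 and -0.33 in WT cultures. Of all genes tested, 40.0%, 40.9% and 41.6% were higher in microglia of these genotypes and 46.2%, 47.1% and 47.9% were lower. Of the 20, 8 were higher and 9 lower in APOE33 microglia, 9 higher and 7 lower in APOE44 microglia, and 7 higher and 10 lower in WT microglia. For 8 enzymes the difference was called higher in KO microglia and lay below 0 in all 3 other genotypes, and for 5 of them, Acat2, Hmgcs1, Fdft1, Sqle and Sc5d, it was called lower in all 3. Hmgcs1 had 0.89 in KO cultures, against -0.85 in APOE33, -0.81 in APOE44 and -0.97 in WT cultures.

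The summed level of the 20 enzymes was 1564 to 1997 CPM in KO microglia, against 480 to 1071 CPM in APOE33, 540 to 796 CPM in APOE44 and 582 to 1184 CPM in WT microglia. In astrocytes it was 594 to 731 CPM in KO cultures, against 812 to 904 CPM in APOE33, 716 to 806 CPM in APOE44 and 918 to 1091 CPM in WT cultures. For all 20 enzymes the 4 KO microglia libraries lay above each of the 18 other microglia libraries, and for 5 enzymes the 4 KO astrocyte libraries lay below each of the 18 other astrocyte libraries. The shares of all genes that lie so are not given here, so these counts cannot be judged against them.

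**Figure D4:**
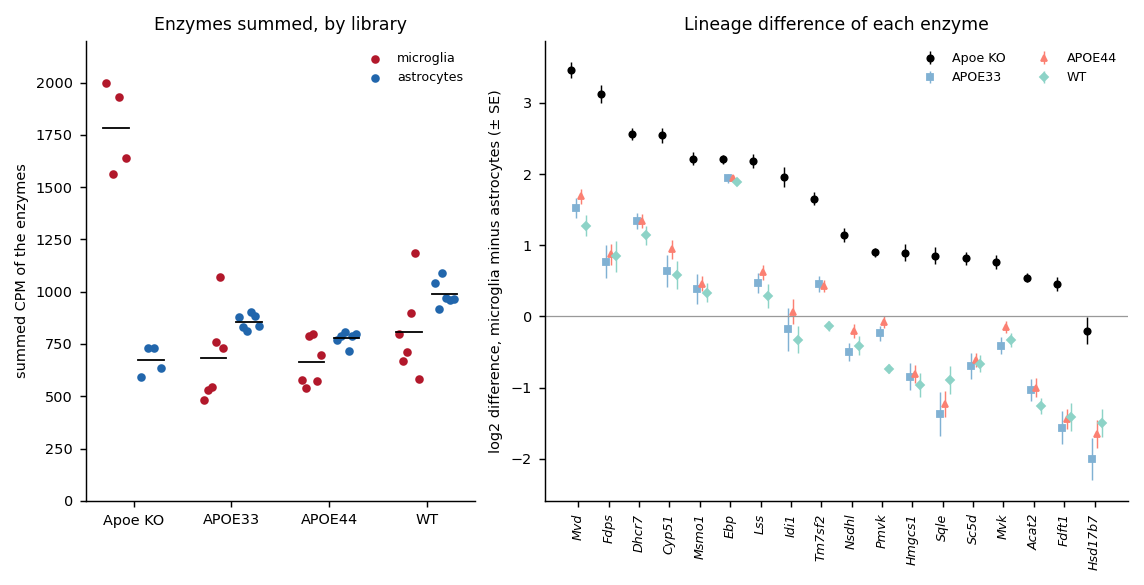
Left, the summed CPM of the 20 cholesterol synthesis enzymes in each library, with the group's mean as a black bar, microglia in red and astrocytes in blue; right, the log2 difference between microglia and astrocytes of 18 of them in each genotype, with its SE as an error bar. The 4 KO microglia sums, 1564 to 1997 CPM, stand above all other libraries, and the KO value of each enzyme shown lies above its value in the other genotypes.

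The difference between the KO lineage gap and that of the other genotypes was tested directly, as the KO log2 difference minus the mean of those in APOE33 and APOE44, in 1 model over the 32 libraries of batch 1. Over all 21647 genes in that model, 18.5% were called, 1929 positive (8.91%) and 2069 negative (9.56%). All 20 enzymes were called positive, with a median of 1.75, and this count stayed at 20 of 20 under each alternative run. Fdps had 2.45, Sqle 2.28, Fdft1 2.10, Mvd 1.97 (adjusted p = 4.83e-08), Hmgcs1 1.85 (adjusted p = 3.79e-06) and Ebp, the smallest, 0.33 (adjusted p = 0.00424). Against WT, where genotype and batch cannot be told apart, all 20 were also positive, with a median of 1.91. There 16.6% of 21392 genes were called positive and 9.76% negative, 26.3% in all.

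The promoter of Hmgcs1 is shown because it was the 1 enzyme promoter, of 15 matched, that held the sterol element letters TCACNCCAC on either strand in the 250 bases before the start. These letters, bound by the sterol regulator SREBP, stood in 1.30% of all tested promoters and in 1.05% of the whole table, and no match in the other 14 says only that these letters are not in this window. The sequence is from RefSeq (GRCm38.p6, plus strand, chr13:119690101-119690350), and the match, in capitals, begins 137 bases before the start.
Hmgcs1: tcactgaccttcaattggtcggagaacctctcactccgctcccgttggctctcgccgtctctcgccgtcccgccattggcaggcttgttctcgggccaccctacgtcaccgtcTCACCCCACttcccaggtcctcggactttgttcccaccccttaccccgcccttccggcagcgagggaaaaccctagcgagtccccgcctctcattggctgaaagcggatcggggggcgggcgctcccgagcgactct

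Other lipid genes, chosen after their values were seen, also departed from APOE33 and APOE44. The desaturase Fads2 was lower in KO microglia, with 53.2, 88.3, 92.7 and 46.1 CPM, against 233, 251, 222 and 222 CPM in KO astrocytes (log2 -1.78), yet its gap was smaller than in APOE33 and APOE44, by 2.20 (adjusted p = 5.15e-05). Soat1 (0.61) and Npc1 (0.72) were also positive against APOE33 and APOE44.

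Of 23 genes of fatty acid synthesis and lipid droplets, 9 were higher in KO microglia and 13 were lower. This lay near the shares over all genes, 38.0% and 48.3%. Acsl3, which activates fatty acids at lipid droplets, had 50.2, 42.7, 48.4 and 43 CPM in KO microglia, against 439.9, 428, 406 and 417 CPM in KO astrocytes (log2 -3.24), and its interaction with APOE33 and APOE44 was 1.12 (adjusted p = 5.66e-06). Scd1 was lower, with 2.92, 1.06, 1.18 and 2.93 CPM in KO microglia, against 249, 365, 350.2 and 261 CPM in KO astrocytes (log2 -7.30), as were the perilipin Plin4 (-8.57) and the elongase Elovl5 (-1.79). The fatty acid binding proteins Fabp3 (6.78), Fabp4 (7.11) and Fabp5 (5.62) and Acsl1 (1.44) were higher. Against APOE33 and APOE44, 10 of the 23 interactions were called positive, where 8.91% of all genes were, and 1 negative, where 9.56% were. That negative call was lost with no sex covariate, the replicate block, RLE scaling, no filter or DESeq2's Wald test, and when any of 5 KO libraries was left out.

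Glycolysis genes lay on both sides. Of 22 glycolysis and lactate genes, 12 were higher in KO microglia and 8 were lower, where 38.0% and 48.3% of all genes were. The lactate exporter Slc16a3 had 102, 89.1, 102 and 112 CPM in KO microglia, against 1.04, 1.02, 1.16 and 1.04 CPM in KO astrocytes (log2 6.52), and Hk2 had a log2 difference of 3.43. Aldoc, the brain aldolase, had 58.3, 45, 39.6 and 56.4 CPM in KO microglia, against 6163, 4035, 4036 and 3925 CPM in KO astrocytes (log2 -6.53), Pfkm had -3.97, and the lactate carrier Slc16a1 had -3.54. Aldoc was highest in astrocyte replicate 1, and its interaction with APOE33 and APOE44 was 1.67 (adjusted p = 1.39e-05). Of the 22 interactions with APOE33 and APOE44, 10 were called positive, where 8.91% of all genes were, and 1 negative, where 9.56% were.

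Across all genes the lineage difference in KO cultures resembled that of the other genotypes, whose libraries are separate from the KO ones. Of the 16350 KO calls, 14613 were called with the same sign in APOE33 (89.4% of the KO calls, 91.0% of the APOE33 calls), 14731 in APOE44 (90.1% and 89.0%) and 14909 in WT (91.2% and 86.2%). The opposite sign was called for 106, 167 and 243 genes. Without astrocyte replicate 1 of APOE33, whose labels disagree, 14642 KO calls had the same sign in APOE33 and 101 the opposite sign. In these genotypes 86.2%, 88.0% and 89.5% of all tested genes were called. Pearson's r of the log2 differences, across genes, which are not independent replicates, was 0.968, 0.960 and 0.962. Of 17789 genes tested in all 4 genotypes, 13768 were called with the same sign in all, 6256 higher and 7512 lower in microglia. There were 204 genes called in KO cultures and in none of the other 3 genotypes, 620 were called in the other 3 and not in KO cultures, and 44 were called in KO cultures against a common opposite sign in all 3.

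**Figure D5:**
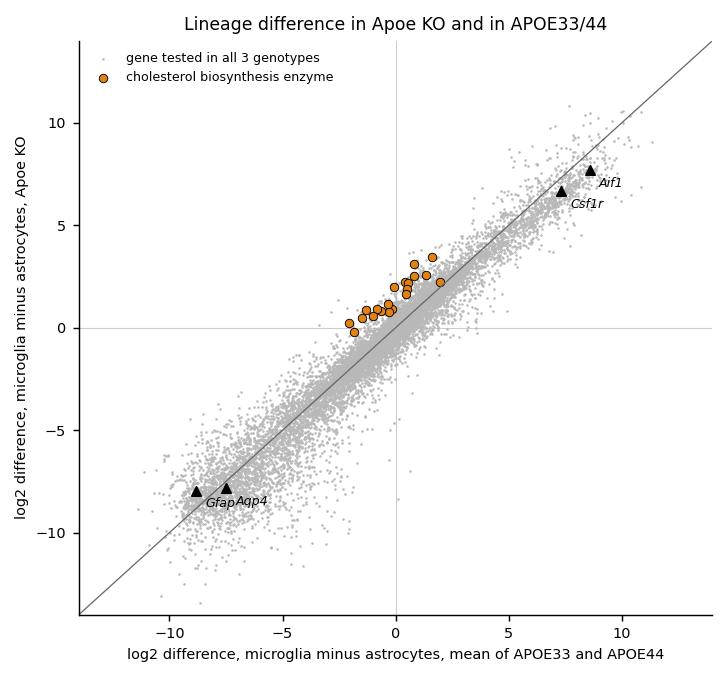
Log2 difference between microglia and astrocytes in KO cultures (y axis) against the mean of that in APOE33 and APOE44 cultures (x axis), 1 grey point per gene, with the cholesterol enzymes in orange, 4 markers as triangles and the line of equality. Most genes lie along the line, and the 20 enzymes lie above it.

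The single genes with the smallest adjusted p for a departure from APOE33 and APOE44 were of varied functions. Their distance from Apoe in the genome is not given here, and the cause of these departures was not tested. Ncapg2, a condensin subunit, had log2 differences of 2.57 in KO, 2.14 in APOE33, -0.72 in APOE44 and 2.19 in WT cultures, with APOE44 alone below 0, and an interaction of 1.93 (adjusted p = 4.35e-11). Map3k5, a stress kinase, had 1.07 in KO cultures, against 2.30, 2.68 and 2.49 in APOE33, APOE44 and WT (interaction -1.44, adjusted p = 6.68e-11). Dmpk, a muscle kinase, had 1.30, 1.47, 0.892 and 1.81 CPM in KO microglia, against 159.8, 118, 141 and 174 CPM in KO astrocytes (log2 -6.79, interaction -3.02).

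The membrane protein Myadm (1.49), the cadherin Dchs1 (2.05), the ubiquitin ligase subunit Fbxo9 (-0.84) and the transcription factor Ets1 (-1.0) were the other leading genes beside Mvd. Dchs1 was higher in KO microglia by 1.40, whereas its difference was 0.11 in APOE33, -1.01 in APOE44 and -0.60 in WT cultures. Ets1 was 2.62 in KO cultures and 2.59 in WT cultures, against 3.59 in APOE33 and 3.67 in APOE44.

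Against WT, the leading genes were Gsta3, a glutathione transferase (4.34, adjusted p = 1.25e-10), the anion exchanger Slc4a2 (-1.85), the citrate-cleaving enzyme Acly (1.21), the secretory kinase Fam20c (1.5), Camkk1 (3.07) and the fatty acid oxidation enzyme Echs1 (0.91). Gsta3 had 27.4, 21.1, 24.6 and 23.9 CPM in KO microglia, against 3.80, 4.14, 3.84 and 3.34 CPM in KO astrocytes (log2 2.63), while its difference was -1.53 in WT cultures. Slc4a2, Pak1 and Samd9l were lower in KO microglia (-1.61, -0.96 and -1.60) and higher in WT microglia (0.38, 0.11 and 0.35), with interactions of -0.96 for Pak1 and -1.88 for Samd9l. Apoe itself had 0.42 in KO cultures, against 3.08 in WT cultures (interaction -2.54, adjusted p = 1.43e-04), a call that DESeq2's Wald test did not make (adjusted p = 0.301). Between KO and WT the split of positive and negative calls depended on scaling, with 62.9% positive under TMM, 53.6% under DESeq2's size factors and 47.4% under upper-quartile scaling. Without astrocyte replicate 1 the positive calls numbered 2246 and without astrocyte replicate 3 they numbered 2337, against 3545 with all libraries.

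Some genes of microglial identity and of pathogen sensing had smaller lineage differences in KO cultures than in APOE33 and APOE44 cultures. Against APOE33 and APOE44, 9 of 22 microglia markers were called negative, none was called positive and 13 were not called, with a median of -0.78. Of 21 homeostatic genes, 14 were called negative and none positive. Of 21 Toll-like receptors and adaptors, 13 were called negative and none positive, with a median of -0.69, and the negative calls fell to 8 with the replicate block. Over all genes, 9.56% were negative and 8.91% positive. Against WT, none of the 22 markers was called negative and 2 were called positive, with a median of 0.36, and 2 homeostatic genes were called in each direction, with a median of 0.13. There the shares over all genes were 9.76% negative and 16.6% positive. Aif1 had an interaction of -0.99 (adjusted p = 0.0189), Tmem119 one of -2.37 (adjusted p = 0.00356), Cd14 one of -2.02 (adjusted p = 6.45e-05) and Sall1 one of -1.90 (adjusted p = 8.15e-05). In the astrocyte cultures the summed microglia markers were 338 to 673 CPM in KO astrocytes (median 539 CPM), against 223 to 737 CPM in APOE33 (349 CPM), 186 to 658 CPM in APOE44 (370 CPM) and 244 to 695 CPM in WT astrocytes (415 CPM). In the microglia cultures the sum was 38887 to 42225 CPM in KO cultures, against 40226 to 48318 CPM in APOE33, 38312 to 46073 CPM in APOE44 and 28504 to 34166 CPM in WT cultures. Their part in these interactions was not tested. The number of negative marker calls fell to 4 without astrocyte replicate 2, to 5 without astrocyte replicate 1 or microglia replicate 1 and to 5 without a filter on low counts, and that of homeostatic genes fell to 8 without astrocyte replicate 1.

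For Gfap the interaction was 1.06 (adjusted p = 0.0302), and this call was lost without either microglia replicate 1 or 4 (adjusted p = 0.199 and 0.0895), the libraries in which Gfap was highest, and without astrocyte replicate 1 or 4. Cxcr4, the receptor for Cxcl12, chosen after its values were seen, had a positive interaction of 1.93 (adjusted p = 8.88e-05). Its log2 difference was 5.26 in KO cultures, against 3.53 in APOE33, 3.29 in APOE44 and 3.93 in WT cultures.

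Genes linked to Alzheimer's disease in people followed the lineages. Of 30 mouse counterparts of such risk genes other than Apoe, 21 were higher in KO microglia and 9 were lower, with a median log2 difference of 2.24. Bin1, a membrane-bending adaptor, had 335, 381, 361 and 359 CPM in KO microglia, against 29.2, 30.2, 28.2 and 28.9 CPM in KO astrocytes (log2 3.58), and Inpp5d, Plcg2, Mef2c and Tspan14 were higher by 5.89, 5.13, 4.67 and 3.38. Sorl1, which sorts the amyloid precursor, was lower, with 119, 144, 129 and 116 CPM in KO microglia, against 754, 879, 827 and 733 CPM in KO astrocytes (log2 -2.70), and so were Clu, Fermt2 and App. The genes beside Apoe on chromosome 7 gave 13 of 22 higher and 6 lower, with a median of 0.24. Relb, an NF-kappaB subunit, had a log2 difference of 2.71, Trappc6a of 1.10 and the adhesion molecule Bcam of -6.59.

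The growth and activation lists had members on both sides. Over all genes tested, 38.0% were higher in KO microglia and 48.3% were lower. Of 34 cell cycle genes, 15 were higher in KO microglia, 4 were lower and 15 were not called. The proliferation gene Mki67 had 8.01, 48.6, 25.5 and 12 CPM in KO microglia, against 2.09, 9.58, 9.41 and 5.05 CPM in KO astrocytes (log2 1.82), and the replication genes Mcm6, Mcm3 and Pcna had 2.24, 2.46 and 1.81. Ccnd2, cyclin D2, was lower, with 15.7, 22.7, 18.8 and 15.1 CPM in KO microglia, against 519, 446, 489 and 540.4 CPM in KO astrocytes (log2 -4.83). Of 24 immediate early genes, 14 were higher and 6 were lower. Junb, Atf3 and Zfp36 were higher by 4.57, 5.71 and 3.86, and Klf4 was lower (-1.48).

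Markers of other cell types were followed in the same libraries. Of 10 oligodendrocyte genes tested, 7 were lower in KO microglia and 3 were higher, with a median log2 difference of -5.51. Opalin was at 0 in all 8 libraries. Mbp, whose locus also gives transcripts known from immune cells, lay against that median. It had 129, 131, 136 and 132 CPM in KO microglia, against 1.05, 1.58, 0.793 and 1.30 CPM in KO astrocytes. Of 8 neuronal genes tested, 7 were lower in KO microglia, with Map2 at 0.964, 0.407, 0.434 and 0.917 CPM in KO microglia, against 215, 206, 202 and 194 CPM in KO astrocytes. The neuronal list summed to 255 to 282 CPM in KO astrocytes, most of it Map2. The synaptic transporter Slc17a6 was at 0 in all libraries. Of 7 endothelial genes tested 4 were higher and 2 lower, with Cldn5 at 0 in all KO microglia libraries.

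Of 10 mural and fibroblast genes tested, 9 were lower in KO microglia, with Pdgfrb at 0.428, 0.443, 0.169 and 0.212 CPM in KO microglia, against 75.3, 141, 143 and 112 CPM in KO astrocytes. Acta2 had 1.18, 0.777, 1.19 and 1.12 CPM in KO microglia, against 55.4, 142, 152 and 94.3 CPM in KO astrocytes. All 6 ependymal and choroid genes tested were lower, with the ciliary factor Foxj1 at 1.58, 0.742, 0.434 and 1.25 CPM in KO microglia, against 92.1, 151, 142 and 188 CPM in KO astrocytes. Of 9 border macrophage and monocyte genes tested, 7 were higher in KO microglia and 1 was lower, with Ms4a7 at 1368, 1285, 1382 and 1313 CPM in KO microglia, against 9.28, 8.15, 4.31 and 6.72 CPM in KO astrocytes. The haemoglobin genes were at 0 in all 8 libraries. The part of such cells in the differences was not tested.

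At the other end, 2605 genes were not called, and for 961 of them the 95% interval of the log2 difference lay within 0.5 of 0. The most abundant of those were an rRNA-like gene, CT010467.1, the adhesion protein Tns3, the capping-protein regulator Mtpn and the RNA-binding proteins Qk, Ddx17 and Hnrnpa2b1. Qk, which steers splicing in glia, had 565, 562, 578 and 589 CPM in KO microglia, against 521, 577, 539 and 501 CPM in KO astrocytes (log2 0.06, adjusted p = 0.353). Hnrnpa2b1 had 502, 513, 531 and 517 CPM in KO microglia, against 525, 517, 504 and 507 CPM in KO astrocytes (log2 -0.04, adjusted p = 0.472). The groups of both genes overlapped.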

How the data were processed

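The authors deposited 1 table of raw counts per Ensembl gene for the 44 libraries. Per the labels' protocols, total RNA was made into libraries with NEBNext Ultra kits and sequenced as paired-end reads of 150 bases. The submitters' processing notes name STAR 2.5.3a, featureCounts and edgeR 3.26.8, and hg38 as the only build; for mouse no build or annotation is named. Of 54146 identifiers, 54079 matched GENCODE M21 (GRCm38), 96.9% with the same version.

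Differences were fitted with edgeR 4.0.16 in R 4.3.3 (TMM scaling, filterByExpr, robust quasi-likelihood F-test, Benjamini-Hochberg adjustment, threshold 0.05), with cell type and sex as terms, on the 8 KO libraries. Differences past 2-fold used TREAT. Interactions were fitted with APOE33 and APOE44 (32 libraries) or WT (20 libraries). DESeq2 1.42.0, other scalings and filters, a replicate block and leaving out each KO library were alternatives. The fits were tested on simulated data. Levels are CPM after TMM scaling of all 44 libraries. The SE is the log2 difference over the root of F, and counting intervals would cover counting error only.

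Members and lists were chosen with earlier results of these data known. Named genes follow a rule: Apoe, the 4 markers, the 10 largest differences each way past 2-fold at a mean log2 CPM of at least 5, up to 3 leading members and 1 opposite member of each list, both members of listed pairs, the leading interactions and sign reversals, abundant uncalled genes and the highest levels per kilobase. Other list members named were chosen after their values were seen, and 1 pair of neighbouring genes was dropped as no paralogues. No 2 replicates agreed within sampling noise (lowest chi-square per gene 18.2). Replicate numbers were not taken to pair the cell types. Same-number correlations over autosomal genes were 0.088, 0.080, 0.033 and -0.012, against -0.119 to 0.06 for different numbers. These ranges overlap, and the values do not settle whether the numbers pair. The share of even values among counts of 1 to 9 was 62.4 to 68.8%, so pairs of reads may partly have been counted as 2 and the depth be overstated; this was not tested. A few genes of the lists, counted in the totals, are not reported here by name.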

Additional observations from a re-analysis of the deposited data

Results flagged for a closer look

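In groups of 4 to 6 libraries, a library was noted where its gap to the nearest other took most of the group's range. This held for 19 of 546 groups, and chance gives about 1 in 20. In KO microglia the shares of the range were 0.978 for Mmp12 (replicate 2 lowest, 117 CPM against 175 to 176 CPM), 0.862 for Col4a3 (replicate 1 lowest), 0.956 for Bcam (replicate 3 lowest), 0.913 for Lcp1 and 0.844 for Gmfb (replicate 2 lowest), 0.833 for Inppl1 (replicate 1 highest) and 0.88 for Ets1 (replicate 4 lowest). Itgb2, the beta chain of the leukocyte integrins, reached 0.838, with 2030.2 CPM in replicate 4 against 900.1 to 1083 CPM in the others.

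In KO astrocytes replicate 1 was the library apart for most of these genes. The share was 0.951 for Aldoc (6163 CPM against 3925 to 4036 CPM), 0.83 for Htra1 and 0.84 for Vav3, where replicate 1 was highest, and 0.845 for Hes1, 0.854 for Gulp1, 0.866 for Tapbp, 0.943 for Pfn1 and 0.91 for Myo1e, where it was lowest. Replicate 3 was highest for Slc16a3 (0.852) and replicate 2 for Wasl (0.907). The summed astrocyte markers were highest in APOE33 microglia replicate 2 (0.788), at 211 CPM against 62.3 to 93.7 CPM.

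The lineage difference in KO cultures differed, by the test of the interaction, from that in APOE33 and APOE44 for the genes reported above. The positive values were 1.97 for Mvd, 1.85 for Hmgcs1, 2.28 for Sqle, 0.33 for Ebp, 2.10 for Fdft1, 2.45 for Fdps, 0.61 for Soat1, 0.72 for Npc1, 1.12 for Acsl3, 2.20 for Fads2, 1.67 for Aldoc, 1.93 for Cxcr4, 1.06 for Gfap, 1.93 for Ncapg2, 1.49 for Myadm and 2.05 for Dchs1. The negative values were -0.99 for Aif1, -2.02 for Cd14, -2.37 for Tmem119, -1.90 for Sall1, -1.44 for Map3k5, -3.02 for Dmpk, -0.84 for Fbxo9 and -1.0 for Ets1. Against WT the values were -2.54 for Apoe, 4.34 for Gsta3, -1.85 for Slc4a2, 1.21 for Acly, 1.5 for Fam20c, 3.07 for Camkk1, 0.91 for Echs1, -0.96 for Pak1 and -1.88 for Samd9l.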

How the results depend on the processing

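The number of KO lineage calls stayed within 1.5 times under each alternative run, 16117 to 16682 when 1 library was left out (7093 to 7231 higher, 9024 to 9452 lower) and 9972 to 10375 past 2-fold. With the replicate block the calls numbered 15932, and 3626 and 5284 for the interactions with APOE33 and APOE44 and with WT; a same number is not known to mark a shared animal or day. Leaving out 1 KO library gave 2912 to 3803 interaction calls against APOE33 and APOE44 (1322 to 1898 positive, 1590 to 1905 negative). An alternative chosen after seeing the data left out astrocyte replicate 1 of APOE33, whose labels disagree: the APOE33 calls numbered 16108, the enzymes called positive against APOE33 and APOE44 stayed 20 of 20, and the negative calls were 8 of the microglia markers and 12 of the homeostatic genes. Without that APOE33 library the interaction calls against APOE33 and APOE44 numbered 3930. Against WT, leaving out 1 KO library gave 4978 to 5501 interaction calls, of which 2246 to 3642 were positive and 1828 to 3007 negative. Upper-quartile scaling moved the median of all genes to -0.36, against -0.25 under TMM, and turned Arpc1a to -0.086 (adjusted p = 0.0272). The median of the endothelial genes turned to -1.42 with no filter and to -1.53 in the fit on all 32 libraries of batch 1, and that of the erythrocyte genes to -1.39 with no filter, where more genes were tested. Over the named genes, 4205 of the values under alternatives kept their direction and side of the threshold, 39 lost the call, 2 gained it and 1 reversed. For their interactions the numbers were 1213, 21 and 6, with none reversed; Gfap and Aif1 against APOE33 and APOE44 lost it under 6 and 4 alternatives. The cause was not tested. Depth limited genes under a few counts per library, and 600 tested genes had no count in any KO microglia library.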
